A study of Mus musculus with 6 samples.

Results

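Mitosis is the step at which a dividing cell condenses its copied chromosomes, attaches them to a spindle of microtubules and pulls the copies apart. Cyclin B bound to the kinase Cdk1 drives entry, the spindle checkpoint holds the cell until every kinetochore is attached, and the anaphase-promoting complex (APC/C) then marks cyclin B and securin for destruction so that sister chromatids separate. Transcripts of this machinery are made mainly in late S, G2 and M phase, so in a cycling line they are abundant, whereas mature neurons, which have left the cycle, hold little of them.

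The genes described here are 50 mouse genes of this machinery, chosen by name as kinases and cyclins of mitotic entry, Aurora kinases with their passenger complex, the spindle checkpoint, APC/C coactivators and anaphase regulators, kinetochore, spindle and midzone proteins, condensin and chromosome proteins, and the transcription factor Foxm1. All 50 were among the 21878 gene symbols of the expression table, and all 50 passed the filter on low values that left 12889 genes for the test. They were listed by name, with earlier results of these data known. Their level was read in 6 RNA libraries of HT22 cells, an immortalized mouse hippocampal line that divides in culture: 3 from control cells at 0 µM (C) and 3 from cells given 120 µM aluminum maltolate for 24 h (Al), the unprecipitated input RNA of an m6A immunoprecipitation experiment. The sample names carry the letters C and M only, and the dose comes from the study's sequencing methods. Those give no hours, and the 24 h is from its general treatment section. The study lists a control with medium only and a maltol control without aluminum. The sample names do not say which of them C is, and the part of maltol in these differences was not tested. The samples are triplicates of 1 cell line, so a P value measures the spread between cultures of that line. The question was how the mitotic programme differs between aluminum-treated and control cells.

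The deposited values are FPKM, fragment counts adjusted for transcript length and sequencing depth. Levels below are FPKM divided by a size factor of each library (normalised FPKM), and a difference is the log2 fold change, Al minus control, with its standard error (SE) from limma and a Benjamini-Hochberg adjusted P over all 12889 genes. The criteria of the study were used for calls, namely P under 0.05 before adjustment and a log2 fold change beyond 0.58 on either side. The control libraries held 37768842 to 44220124 reads on genes and the Al libraries 20973691 to 26487603, so depth moved with treatment, and its part in the results was not tested. The smallest count behind any member value was 113 reads, for Ccnb2 in Al replicate 1, where counting error alone is 9.41%. Of 8 neuron markers, Tubb3 alone was at 1 FPKM or more in every library (2.44 to 5.54 FPKM), and Nefm and Snap25 were listed at 0 in all 6. Of 4 fibroblast markers, all 4 were at 1 FPKM or more in every library and summed to 2010 to 3193 FPKM in control and 2469 to 3451 in Al. The neuron list summed to 5.40 to 5.78 FPKM in control and 2.66 to 4.17 in Al, and the astrocyte list of 4, which is nearly all Slc1a3, to 13.9 to 23.0 and 1.51 to 2.61 with Aqp4 at 0; all 4 oligodendrocyte markers stayed under 1 FPKM. Of 4 microglia markers 3 stayed under 1 FPKM, with P2ry12 at 0, while Tmem119 ran from 21.3 to 72 FPKM, and the list summed to 39.3 to 48.9 in control and 22.1 to 72.6 in Al. The part of these markers in the mitotic results was not tested.

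Mitotic transcripts went both ways, but their fold changes were less spread than those of all tested genes. Of the 50 members, 18 were called higher in Al (36.0%, where 26.2% of all tested genes were called higher), 5 were called lower (10%, against 24.4%) and 27 were not called, where 50.6% of all genes were called in either direction. The called increases ran from 0.71 for Ccna2 to 1.19 for Aurka on the log2 scale (1.64-fold to 2.28-fold), and the called decreases from -0.81 for Spc25 to -1.25 for Knstrn (0.572 and 0.421 of the control level). All 23 calls kept an adjusted P under 0.05 in limma, between 2.42e-05 and 0.00237. The 3 Al libraries lay wholly above the 3 controls for 30 members and wholly below for 10. Of all 12889 tested genes 4519 lay wholly above and 4261 wholly below, which is 68.1% in either direction. The median log2 fold change was 0.33 over the members and 0.03 over all tested genes. The SD of the fold changes was 0.628 over the members and 1.02 over all tested genes. It was also smaller over the members under the 3 other scalings described below.

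The scale between libraries sets where the zero of this comparison lies, and no member was called higher under all 4 scalings tried. With FPKM as deposited 3 members were called higher (Aurka, Bub3 and Foxm1) and 11 lower (6% and 22%), where 14% of all tested genes were called higher and 42.0% lower. After scaling to equal sums (TPM) none was called higher and 21 lower (42%), against 9.31% and 53.1% of all tested genes. After quantile normalization 10 were called higher and 8 lower (20% and 16%), against 22% and 24.1%. The share of members called lower was thus below that of all tested genes under each scaling. The median of all tested genes moved with it, from 0.03 to -0.43, -0.72 and -0.03. Relative to that median the members lay 0.30, 0.28, 0.26 and 0.18 higher, in the order size factors, as deposited, TPM and quantile. The 5 lower members (Knstrn, Pttg1, Cdc25b, Ccnb2 and Spc25) were called lower under all 4 scalings, as were 20.4% of all tested genes, while 8.74% were called higher under all 4. Of the 18 called higher, 14 kept a fold change above 0 under all 4, and Ccna2, Plk1, Tpx2 and Birc5 came to between -0.07 and -0.01 with TPM. Ccna2, Ccnb1, Cdca8, Cenpa, Plk1, Smc4, Tpx2 and Ube2c were called higher with size factors alone. Of the other 27 members, 18 changed sign with the scaling, and 10 were called lower with TPM alone (Anln, Aurkb, Cenpe, Dlgap5, Fzr1, Mad2l1, Ncaph, Nusap1, Prc1 and Smc2). Together the members held 0.494% ± 0.0125 (SD, n = 3) of the summed FPKM of a control library and 0.390% ± 0.0527 of an Al library, where single libraries ran from 0.482% to 0.507% and from 0.359% to 0.451%. Their summed normalised FPKM went the other way, from 1499 to 1584 in control to 2074 to 2151 in Al. In bulk RNA, a different number of cells in mitosis and a different amount of RNA per mitotic cell cannot be told apart.

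**Figure D1:**
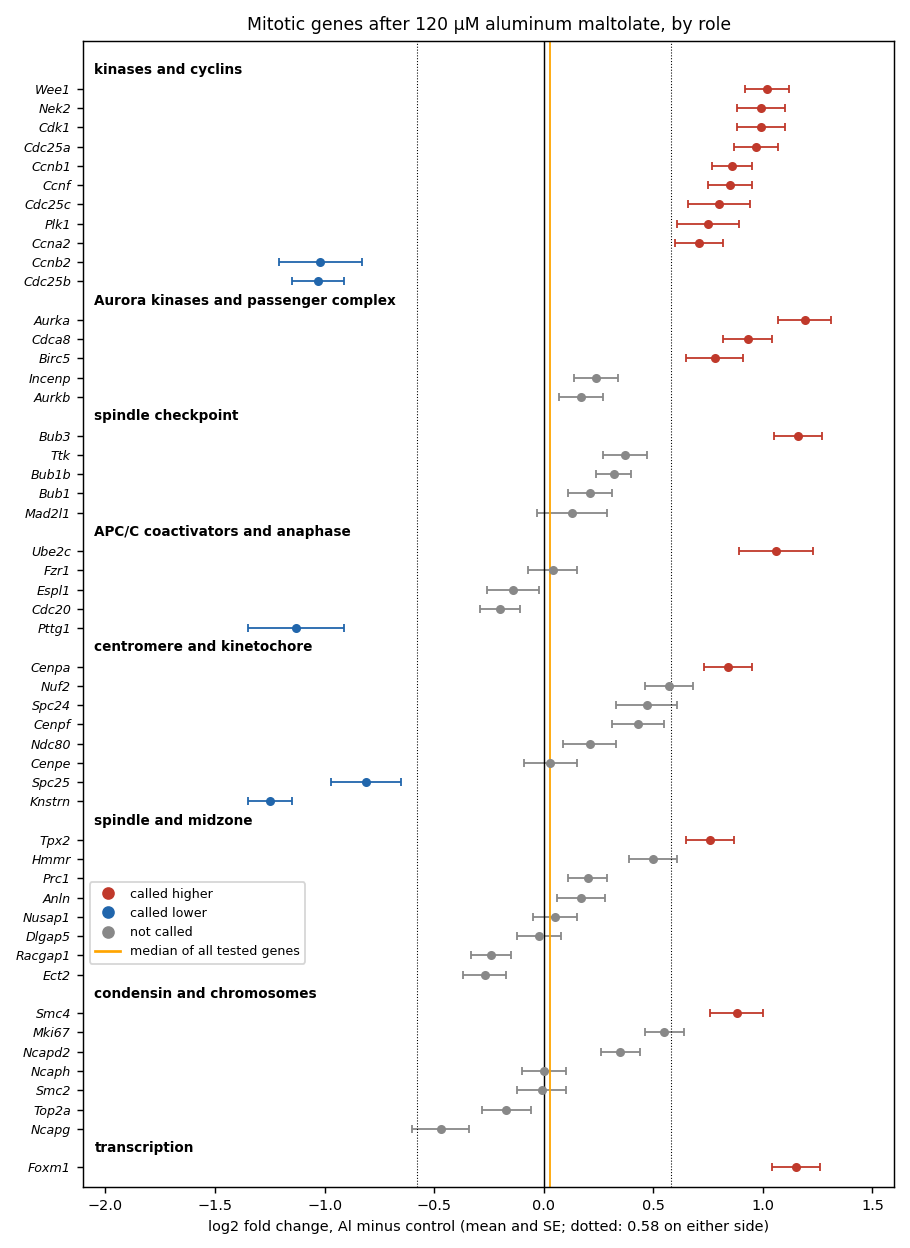
Log2 fold change (Al minus control, size-factor scaling) of each of the 50 members with its SE, grouped by role; red and blue mark calls higher and lower, grey no call, the orange line the median of all tested genes (0.03) and dotted lines 0.58 on either side. Of the 11 kinases and cyclins 9 lie right of the dotted line and 2 left of it, whereas most spindle, midzone and condensin genes lie between the lines.

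**Figure D2:**
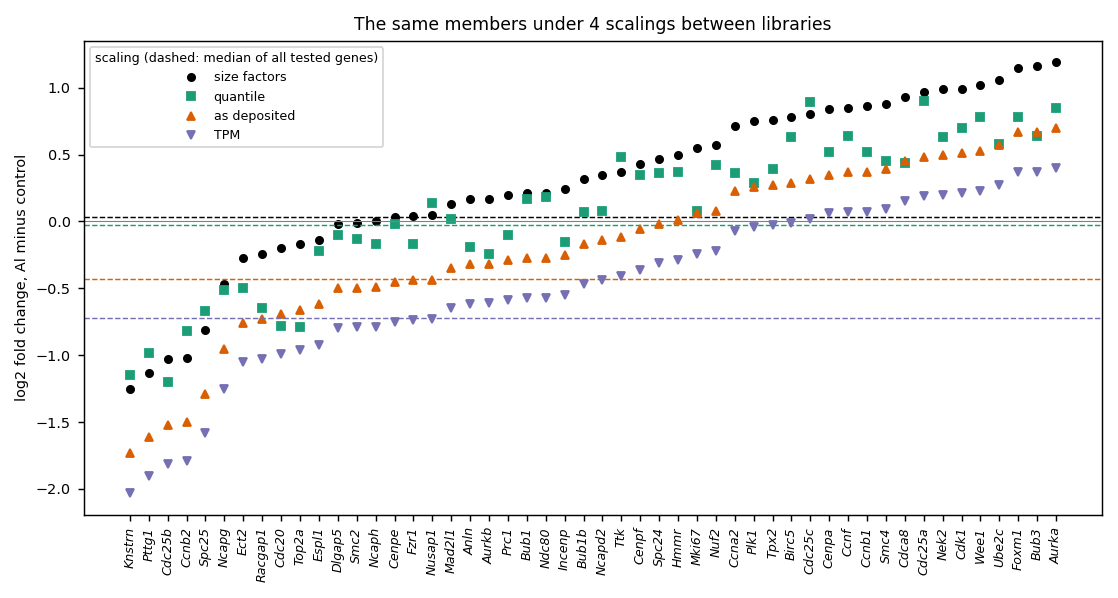
Log2 fold change (Al minus control) of the 50 members, ordered by their value with size factors, under 4 scalings between libraries; dashed lines give the median of all tested genes under each. As deposited and with TPM the values slide down together, from a member median of 0.33 with size factors to -0.45 with TPM, and the 5 genes at the left are below 0 under each scaling.

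Of the kinases and cyclins of mitotic entry, 9 of 11 were called higher with size factors (26.2% of all tested genes were) and 2 lower, with a median of 0.85. After quantile normalization 6 were called higher, against 22% of all tested genes. As deposited and with TPM 0 were called higher, against 14% and 9.31%. The 2 called lower, Ccnb2 and Cdc25b, were the same under all 4 scalings. Ccnb1, cyclin B1, stood at 32.2, 34.6 and 33.2 normalised FPKM in control and 59.7, 61.9 and 59.5 in Al (log2 fold change 0.86, SE 0.09, limma adjusted P 6.79e-05). Ccnb2, cyclin B2, which also activates Cdk1, stood at 8.22, 10.1 and 9.51 in control and 3.43, 5.76 and 4.61 in Al (-1.02, SE 0.19, adjusted P 0.00156). The groups did not overlap for either gene, and the 2 cyclins B differed in opposite directions with size factors; Ccnb1 stayed between 0.07 and 0.52 and Ccnb2 between -1.79 and -0.82 under the other 3 scalings. Ccnb1 lies on chromosome 13 (GRCm38, bases 100778650 to 100786570, minus strand) and has 4 processed copies elsewhere that match at least 50% of it at 90% identity or more, so reads may have been shared with them. Ccnb2 lies on chromosome 9 (70407692 to 70421547, minus strand) and has no such copy.

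Cdk1, their kinase partner, stood at 25.4, 28.2 and 26.6 normalised FPKM in control and 55.9, 58.0 and 46.7 in Al (0.99, SE 0.11, limma adjusted P 0.000105). Wee1, the kinase that holds Cdk1 inactive, rose by about as much, from 23.6, 21.6 and 19.6 to 44.8, 42.0 and 44.5 (1.02, SE 0.10, adjusted P 5.62e-05). Pkmyt1, a second Cdk1-inhibiting kinase taken from the wider pathway list and not a member, differed the other way, at 21.4, 19.9 and 19.7 in control and 4.25, 5.09 and 5.44 in Al. Its log2 fold change was -2.03 (SE 0.12, adjusted P 8.11e-06), below every member, and it was called lower under all 4 scalings.

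The Cdc25 phosphatases, which remove the inhibitory phosphates from Cdk1, also split. Cdc25a stood at 11.3, 11.2 and 10.9 normalised FPKM in control and 20.2, 22 and 23.6 in Al (0.97, SE 0.10, limma adjusted P 6.28e-05). Cdc25b stood at 33.0, 33.7 and 33.0 in control and 16.7, 13.7 and 18.6 in Al (-1.03, SE 0.12, adjusted P 0.000136). Cdc25c, at 7.11, 6.76 and 6.22 in control and 10, 11.6 and 13.8 in Al, was called higher (0.80, SE 0.14, adjusted P 0.00108). Thus Cdc25b was the most abundant of the 3 per length in each control library, and Cdc25a in each Al library. Exons of Cdc25b share 92 bases with Spef1 on the opposite strand, and whether the counting used strand is not given in the sources used here. Those of Cdc25c share 623 bases with Gm3550, also on the opposite strand.

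The remaining members of this group were called higher. Plk1, the polo-like kinase of spindle assembly, stood at 47.0, 50.4 and 42.3 in control and 85.7, 86.5 and 64.2 in Al (0.75, SE 0.14, limma adjusted P 0.00164), and came to -0.04 with TPM. Plk1 has 1 processed copy elsewhere, Plk-ps1, with which reads may have been shared. Nek2, a centrosome kinase, gave 0.99, Ccnf, cyclin F, 0.85 and Ccna2, cyclin A2, 0.71, with Ccna2 at -0.07 with TPM. Nek2 went from 29.3, 32.2 and 38.4 to 66.2, 64.8 and 66.1, so its Al libraries lay closer together than its controls.

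Aurora kinases and the chromosomal passenger complex were unequal. With size factors Aurka, the Aurora kinase of centrosomes and spindle poles, had the highest fold change of all 50 members, with 27.7, 27.2 and 26.7 normalised FPKM in control and 72.2, 61.6 and 54.0 in Al (1.19, SE 0.12, limma adjusted P 5.74e-05). After quantile normalization Cdc25a (0.90) and Cdc25c (0.89) lay above Aurka (0.85). Aurkb, the Aurora kinase of the passenger complex, stood at 50.5, 49.3 and 54.0 in control and 54.3, 63.4 and 55.8 in Al and was not called (0.17, 95% interval -0.06 to 0.40), with a sign that turned to -0.32, -0.61 and -0.24 under the other scalings. Of the Aurkb partners, Cdca8 (borealin) was called higher at 0.93 and Birc5 (survivin) at 0.78, Birc5 coming to -0.01 with TPM, and Incenp, the scaffold, was not called at 0.24 and turned negative under the other 3 scalings. Cdca8 was not called under those 3 scalings (0.45, 0.15 and 0.44). Each control library thus held less Aurka than Aurkb per length, and Al replicate 1 held more.

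Promoters of 40 members were found among RefSeq sequences of GRCm38.p6, and the 250 bases before each start were searched for the letters of elements known from late cell cycle genes. The CHR element was searched as TTTGAA on either strand. Its variant TTCGAA, which reads the same on both, was counted with it. The CCAAT box was searched as CCAAT on either strand, seen as ATTGG where it lies on the other one. CHR letters were in 15 of 40 member promoters (37.5%), against 14.9% of the tested genes and 19.6% of all 27025 genes with such a sequence. CCAAT letters were in 31 of 40 (77.5%), against 40.9% and 37.5%, and both kinds in 15 (37.5%), against 5.87% and 7.0%. By call, CCAAT letters were in 11 of 12 members called higher, 3 of 5 called lower and 17 of 23 not called, and CHR letters in 4, 1 and 10 of these. The windows of Aurka and Cdc25a, called higher, of Ccnb2 and Cdc25b, called lower, and of Top2a, not called, are shown because each kind carries CCAAT letters; CHR letters are in those of Ccnb2 and Top2a. Each is the 200 bases before the start (100 for Aurka, beyond which the neighbouring gene begins), read 5′ to 3′ on the strand of the gene, with matches in capitals. They lie at chr2:172370571-172370670 (Aurka, minus strand), chr9:109875379-109875578 (Cdc25a, plus strand), chr9:70421555-70421754 (Ccnb2, minus strand), chr2:131186748-131186947 (Cdc25b, plus strand) and chr11:99024190-99024389 (Top2a, minus strand).
Aurka: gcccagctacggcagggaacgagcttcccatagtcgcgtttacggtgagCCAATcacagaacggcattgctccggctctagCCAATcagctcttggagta
Cdc25a: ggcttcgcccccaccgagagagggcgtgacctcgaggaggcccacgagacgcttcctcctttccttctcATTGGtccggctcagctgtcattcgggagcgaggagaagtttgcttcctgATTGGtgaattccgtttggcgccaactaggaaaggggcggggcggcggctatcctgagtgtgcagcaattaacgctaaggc
Ccnb2: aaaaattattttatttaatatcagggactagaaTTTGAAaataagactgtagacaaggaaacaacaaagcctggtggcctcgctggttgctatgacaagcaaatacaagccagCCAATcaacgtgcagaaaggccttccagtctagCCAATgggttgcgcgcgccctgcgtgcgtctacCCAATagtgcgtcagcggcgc
Cdc25b: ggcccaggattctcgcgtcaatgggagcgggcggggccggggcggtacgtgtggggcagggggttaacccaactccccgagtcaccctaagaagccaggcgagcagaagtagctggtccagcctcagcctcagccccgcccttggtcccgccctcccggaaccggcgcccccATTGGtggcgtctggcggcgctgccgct
Top2a: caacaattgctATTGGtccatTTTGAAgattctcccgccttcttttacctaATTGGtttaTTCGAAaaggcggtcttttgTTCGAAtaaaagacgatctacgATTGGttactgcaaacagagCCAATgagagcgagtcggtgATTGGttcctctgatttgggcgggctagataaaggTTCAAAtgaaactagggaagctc
Ccnb2 holds 3 CCAAT boxes and 1 CHR match, Aurka 2 CCAAT boxes and Cdc25a 2 and Cdc25b 1 on the other strand. Top2a shows 4 CHR matches in capitals. A match of letters is a description of the sequence and not evidence of a factor at the site.

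Of 5 spindle checkpoint genes 1 was called with size factors, and the others stayed below the fold threshold. Of all tested genes 50.6% were called in either direction. Bub3, which carries Bub1 and BubR1 to the kinetochore, was the gene called, with 53.9, 55.9 and 61.2 normalised FPKM in control and 133, 133 and 116 in Al (1.16, SE 0.11, limma adjusted P 4.31e-05). With TPM Bub3 was not called (0.37). Bub1b, encoding BubR1, stood at 29.3, 30.1 and 29.7 in control and 37.8, 37.0 and 36.2 in Al (0.32, SE 0.08, adjusted P 0.0101), so the groups did not overlap although the change was under 0.58. Ttk, the checkpoint kinase Mps1, gave 0.37 (adjusted P 0.0143), Bub1 0.21 (adjusted P 0.0872) and Mad2l1, Mad2, 0.13 with a 95% interval of -0.22 to 0.49. Bub1b came to -0.17 as deposited and -0.47 with TPM, and Ttk, Bub1 and Mad2l1 were also negative under those scalings, where the median of all tested genes was itself at -0.43 and -0.72. All 4 genes lay above that median under each of the 4 scalings. Ttk stood at 7.08, 7.21 and 7.46 in control and 8.81, 9.39 and 9.94 in Al. Bub1 stood at 12.7, 12.5 and 13.5 in control and 15, 14 and 16 in Al. Mad2l1, at 15.4, 19.3 and 20 in control and 19.1, 16.9 and 24.3 in Al, was the checkpoint gene whose groups overlapped. With TPM Mad2l1 was called lower (-0.65), as were 53.1% of all tested genes.

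Among APC/C coactivators and anaphase regulators, Ube2c was called higher and Pttg1 lower. Ube2c, the ubiquitin-conjugating enzyme of the APC/C, stood at 45.6, 45.6 and 54.6 normalised FPKM in control and 128, 103 and 78.8 in Al (1.06, SE 0.17, limma adjusted P 0.000826). Under the other 3 scalings Ube2c was not called (0.57, 0.27 and 0.58). Pttg1, securin, the inhibitor of separase, stood at 11.1, 13.6 and 11 in control and 3.71, 5.76 and 7.27 in Al (-1.13, SE 0.22, adjusted P 0.00237). Both differed widely between Al libraries, and Pttg1 had the widest SD of log2 values in Al of all 50 (0.48, where the median member had 0.13).

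Cdc20, the coactivator on which the checkpoint acts, stood at 106, 107 and 110 in control and 94.4, 93.3 and 93.6 in Al. The groups did not overlap, but the fold change of -0.20 did not pass (SE 0.09, limma adjusted P 0.0947), whereas Cdc20 was called lower at -0.69, -0.99 and -0.78 under the other 3 scalings. Cdc20 has 1 processed copy elsewhere, Gm7856, which may have shared its reads. Fzr1, the coactivator Cdh1 of late mitosis and G1, was at 0.04 (95% interval -0.20 to 0.29) and Espl1, separase, at -0.14 (-0.41 to 0.13). Fzr1 stood at 29.2, 29.2 and 29.5 in control and 27.4, 29.1 and 34.6 in Al, so the Al libraries lay on both sides of the controls. Fzr1 turned negative under the other 3 scalings and was called lower with TPM. Espl1 was called lower as deposited and with TPM.

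At the centromere and kinetochore 1 of 8 genes was called higher, 2 lower and 5 were not called. Knstrn, the small kinastrin that aids chromosome alignment, had the lowest fold change of all members with size factors: 13.9, 13.6 and 13.8 normalised FPKM in control and 5.96, 5.39 and 5.86 in Al (-1.25, SE 0.10, limma adjusted P 2.42e-05). Its adjusted P was the smallest among the called members, and the values within each group lay close together. After quantile normalization Cdc25b (-1.20) lay below Knstrn (-1.15). Exons of Knstrn share 123 bases with Gm14091 on the opposite strand.

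The 4 subunits of the Ndc80 complex, which grips microtubules as 1 assembly, did not move alike. Spc25 stood at 8.97, 13.1 and 10.6 normalised FPKM in control and 6.30, 6.60 and 5.47 in Al (-0.81, SE 0.16, limma adjusted P 0.00197). Nuf2, at 17.5, 17.1 and 18.4 in control and 24.2, 24.5 and 30.3 in Al, gave 0.57 (adjusted P 0.00229), just under the threshold, and -0.22 with TPM. Spc24 was at 0.47, with values of -0.02 and -0.31 as deposited and with TPM, and Ndc80 at 0.21 (95% interval -0.07 to 0.49), with -0.27 and -0.57. Cenpa, the histone H3 variant of centromeres, was called higher at 0.84 (31.7, 31.4 and 27.7 in control, 60.4, 52.1 and 50.4 in Al). Under the other 3 scalings Cenpa was not called (0.35, 0.06 and 0.52). The kinetochore motor Cenpe was at 0.03 and Cenpf at 0.43, both negative as deposited and with TPM. Cenpe stood at 12.8, 14.8 and 13.6 in control and 15.7, 12.3 and 14.2 in Al, which overlap. Cenpf, a kinetochore and nuclear matrix protein, stood at 12.8, 15.2 and 12.7 in control and 17.2, 17.2 and 20.6 in Al, which do not.

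Spindle and midzone genes gave 1 call in 8. Tpx2, which activates Aurora A on the spindle, was called higher, from 35.0, 37.6 and 37.6 to 70.2, 61.7 and 55.4 normalised FPKM (0.76, SE 0.11, limma adjusted P 0.000442), and came to -0.03 with TPM. Hmmr, a spindle pole protein, was at 0.50 (adjusted P 0.00446) and at -0.29 with TPM. Racgap1 and Ect2, which set the division plane through RhoA, stood at -0.24 and -0.27 (adjusted P 0.0445 and 0.0360), with no overlap between groups and a negative sign under all 4 scalings. Racgap1 was called lower under the other 3 scalings (-0.73, -1.03 and -0.65), and Ect2 as deposited and with TPM (-0.76 and -1.05). Racgap1 went from 58.0, 58.4 and 58.7 in control to 46.1, 49.8 and 52.0 in Al, and Ect2 from 33.6, 32.5 and 36.2 to 26.5, 28.2 and 30.1. Prc1 (0.20), Anln (0.17), Nusap1 (0.05) and Dlgap5 (-0.02) were not called with size factors and were called lower with TPM. The first 3 changed sign with the scaling. Prc1, the bundler of midzone microtubules, stood at 33.3, 37.1 and 34.4 in control and 40.0, 40.2 and 39.8 in Al, the tightest of all 50 members in Al. Its exons share 670 bases with Rccd1 on the opposite strand. Anln, anillin of the contractile ring, stood at 43.9, 45.6 and 48.6 in control and 45.6, 52.4 and 57.7 in Al, so its groups overlapped.

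Of the condensin and chromosome genes, Smc4 was called higher, from 40.7, 44.6 and 46.3 to 75, 74.2 and 94.1 normalised FPKM (0.88, SE 0.12, limma adjusted P 0.000325). Under the other 3 scalings Smc4 was not called (0.39, 0.09 and 0.45). Smc2, the ATPase with which Smc4 pairs in every condensin, stood at 16.8, 20.5 and 19.9 in control and 18.2, 18.4 and 20 in Al (-0.01, 95% interval -0.26 to 0.24), so its groups overlapped. The condensin I subunits were at 0.35 for Ncapd2, -0.00 for Ncaph and -0.47 for Ncapg, the last with 16.4, 16.8 and 17.8 in control and 11.1, 11.4 and 14.6 in Al (adjusted P 0.0107). Ncapg was negative under all 4 scalings and called lower as deposited and with TPM (-0.95 and -1.25), and Ncapd2 turned to -0.14 as deposited and -0.44 with TPM. Exons of Ncapg share 944 bases with Lcorl on the opposite strand.

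Top2a and Mki67, common markers of cycling cells, parted. Top2a, topoisomerase II alpha, was the most abundant of this group per length in every library. It stood at 137, 148 and 141 normalised FPKM in control and 121, 123 and 135 in Al and was not called (-0.17, limma adjusted P 0.191), but was called lower at -0.66, -0.96 and -0.79 under the other 3 scalings. Mki67, the Ki-67 antigen, stood at 55.0, 57.0 and 53.9 in control and 81.0, 77.9 and 83.6 in Al (0.55, SE 0.09, adjusted P 0.000928), just under the fold threshold, and at -0.24 with TPM. Foxm1, the transcription factor that activates many G2 and M genes, was called higher at 1.15 (SE 0.11, adjusted P 5.06e-05), from 31.2, 30.9 and 36.1 to 77.2, 76.3 and 65.5, with 0.67, 0.37 and 0.78 under the other 3 scalings.

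**Figure D3:**
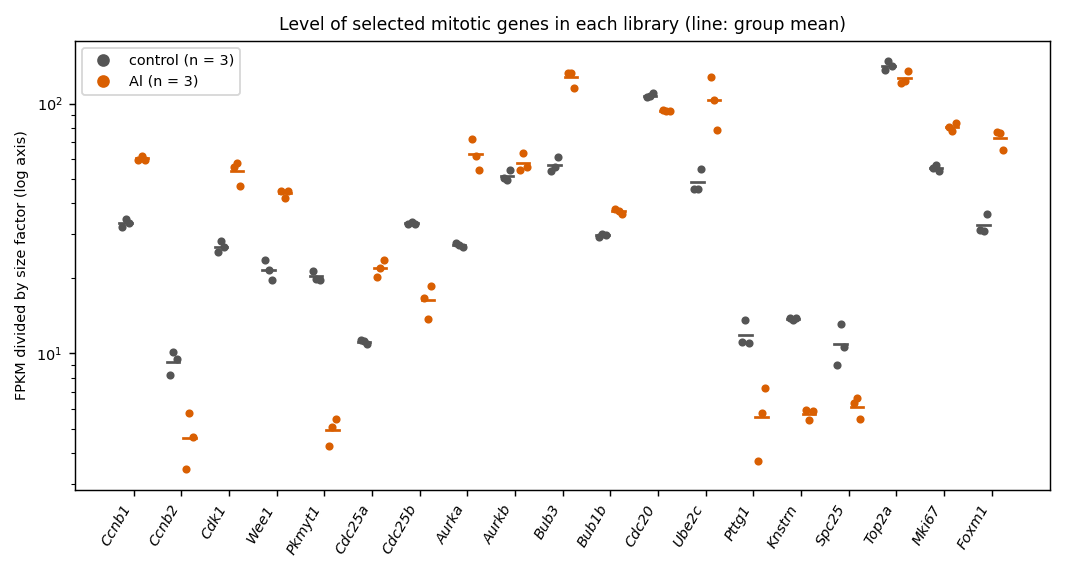
Normalised FPKM (log axis) of 18 members and of Pkmyt1 in each of the 6 libraries, grey for control and orange for Al, with a line at the mean of 3. Ccnb2, Pkmyt1, Cdc25b, Pttg1, Knstrn and Spc25 lie lower in all 3 Al libraries, and Ccnb1, Cdk1, Wee1, Cdc25a, Aurka, Bub3, Ube2c and Foxm1 higher. With smaller fold changes, Cdc20 and Top2a also lie lower in all 3, and Aurkb, Bub1b and Mki67 higher.

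The ratio of 2 genes within a library is not changed by size factors or TPM, which scale a library by 1 factor, but quantile normalization can change it. The ratios here are of deposited FPKM with 0.1 added to each gene, and without that addition the same pairs separated in the same direction. Of 28 pairs of partners, the ratio was higher in all 3 Al libraries than in all 3 controls for 10, lower for 9 and overlapping for 9. With 3 against 3 the exact two-sided permutation test cannot go below 0.1, which became 0.147 after adjustment over the 28 pairs, so no pair passed 0.05. Separated pairs were about as frequent as the 68.1% of single genes that separate, so their number is not a result about these genes. Where the groups did not overlap the size of the difference is the result that can be given.

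Of the 4 pairs of cyclins B, Cdc25 phosphatases and Aurora kinases, 3 did not overlap between groups, and Cdc25c to Cdc25a did, at 0.603 in control and 0.537 in Al. Ccnb1 exceeded Ccnb2 3.59-fold in control and 13.1-fold in Al, a difference of 1.87 between log2 ratios of 1.96, 1.77 and 1.79 and of 4.07, 3.40 and 3.66. Cdc25b exceeded Cdc25a 2.97-fold in control, while in Al the ratio was 0.742, with log2 ratios of 1.54, 1.58 and 1.59 against -0.28, -0.68 and -0.34. The order of the 2 phosphatases was therefore reversed in each Al library. The ratio of Aurka to Aurkb went from 0.532 to 1.08, with log2 ratios of -0.86, -0.86 and -1.02 in control and 0.41, -0.04 and -0.05 in Al.

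Partners in a complex or pathway gave both kinds of result. Spc24 to Spc25 went from 1.34 to 3.24 and Nuf2 to Spc25 from 1.63 to 4.22. Smc2 to Smc4 went from 0.435 to 0.235, Bub3 to Bub1b went from 1.91 to 3.43, and Pttg1 to Espl1 from 0.708 to 0.358. Top2a to Mki67 went from 2.57 to 1.56. Cdca8 and Birc5 were higher against Aurkb by 0.76 and 0.61 on the log2 scale, while Incenp to Aurkb overlapped between groups.

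Other partners kept their ratio within the spread of the libraries. Wee1 to Cdk1 was 0.808 in control and 0.822 in Al, Ect2 to Racgap1 0.584 and 0.575, and Ttk to Bub1b 0.246 and 0.256. Bub1 to Bub1b was 0.436 and 0.407, and Mad2l1 to Bub1b 0.612 and 0.538. Cdk1 to Ccnb1 was 0.802 and 0.883, and Ccna2 to Ccnb1 1.06 and 0.959, with overlapping groups in each case. With 3 libraries a group these overlaps do not show that the ratios are equal.

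**Figure D4:**
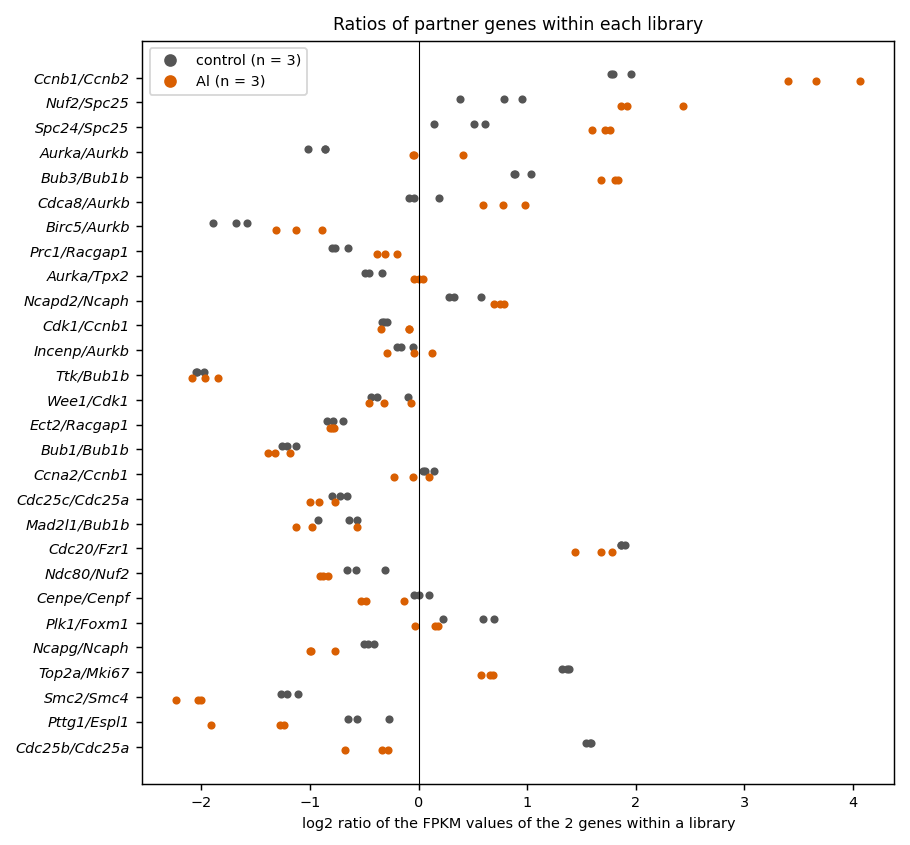
Log2 ratio of the FPKM values of the 2 genes of each of 28 pairs within every library, grey for 3 control and orange for 3 Al libraries, ordered by the difference between groups. Ccnb1/Ccnb2 at the top is higher in Al by 1.87 and Cdc25b/Cdc25a at the bottom lower by 2.0, while the pairs in the middle overlap.

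The other genes of these processes also went both ways. Of 102 further genes, 100 passed the filter (E2f6 and Cdkn2a were listed at 0 in all 6 libraries), 27 were called higher (27%, near the 26.2% of all tested genes), 8 lower (8%, against 24.4%) and 65 not called, and their median was 0.25. Of the 13 outer kinetochore genes 7 were called higher, led by Mis12 (1.54) and Ska2 (1.36), and 1 lower, Knl1 (-0.87). Of 15 inner kinetochore genes 1 was called higher, Cenpq (0.73, and -0.05 with TPM), and 1 lower, Cenpn (-1.01). Of 14 APC/C subunits 3 were called higher and none lower, of 13 cohesin genes 4 and none, led by Cdca5 (1.13), the cohesin-stabilizing sororin, and Rad21 (0.93), and of 3 condensin II genes none in either direction. These family counts hold with size factors. With TPM, where 9.31% of all tested genes were called higher and 53.1% lower, 1 outer kinetochore gene was called higher and 4 lower, 0 APC/C subunits higher and 7 lower, 0 cohesin genes higher and 5 lower, and all 3 condensin II genes lower. Of 18 regulators of entry and checkpoint 6 were called higher with size factors, led by Mad2l1bp (1.86) and Gtse1 (1.61), and 1 lower, Pkmyt1. With TPM 3 of these 18 were called higher and 7 lower, and of the inner kinetochore genes 0 and 7. Over all 102 genes, 5 were called higher and 8 lower under all 4 scalings, against 8.74% and 20.4% of all tested genes. The counts were 12 and 32 as deposited (14% and 42.0% of all tested genes), 5 and 44 with TPM (9.31% and 53.1%) and 28 and 10 after quantile normalization (22% and 24.1%).

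Among 24 tested transcriptional regulators of mitotic genes, 6 were called higher (25%), 5 lower (20.8%) and 13 were not called with size factors. These shares were close to the 26.2% and 24.4% of all tested genes. As deposited 2 were called higher and 8 lower (14% and 42.0% of all tested genes). With TPM the counts were 1 and 11 (9.31% and 53.1%), and after quantile normalization 6 and 5 (22% and 24.1%). All 3 pocket proteins were called lower under all 4 scalings. Rb1 stood at 5.44, 5.66 and 5.11 normalised FPKM in control and 1.51, 1.95 and 2.32 in Al (-1.46, SE 0.18, limma adjusted P 0.000155). The other 2, p107 and p130, join E2F4 and the MuvB core in the DREAM repressor of cell cycle genes in resting cells. Rbl1, p107, stood at 11.2, 11 and 10.5 in control and 3.49, 4.02 and 5.17 in Al (-1.36, SE 0.15, adjusted P 0.000109), and Rbl2, p130, at 7.27, 7.79 and 7.57 in control and 1.57, 1.86 and 3.62 in Al (-1.73, SE 0.27, adjusted P 0.000633). Mybl2, B-Myb, the partner of MuvB in activation, and Tfdp2, a dimer partner of E2F factors, were also lower, at -0.96 and -1.44.

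Of the MuvB core, Lin9 (0.92), Lin52 (1.05) and Lin54 (0.88) were called higher, and Lin37 (-0.10) and Rbbp4 (0.07) were not called. As deposited and with TPM, Lin9, Lin52 and Lin54 were not called (0.14, 0.28 and 0.10 with TPM). E2f7, a repressive E2F, was called higher at 1.12, and E2f1, an activating one, was at -0.34 (limma adjusted P 0.00922) and negative under all 4 scalings. Cdkn1a, the Cdk inhibitor p21, stood at 90.5, 88.1 and 129 in control and 319, 381 and 239 in Al (1.61, SE 0.21, adjusted P 0.000238) and was the only regulator of this list called higher under all 4 scalings. Nfyc, a subunit of the factor that binds CCAAT boxes, was called higher at 0.59 and came to -0.20 with TPM, and Nfya and Nfyb were not called (0.49 and 0.21).

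**Figure D5:**
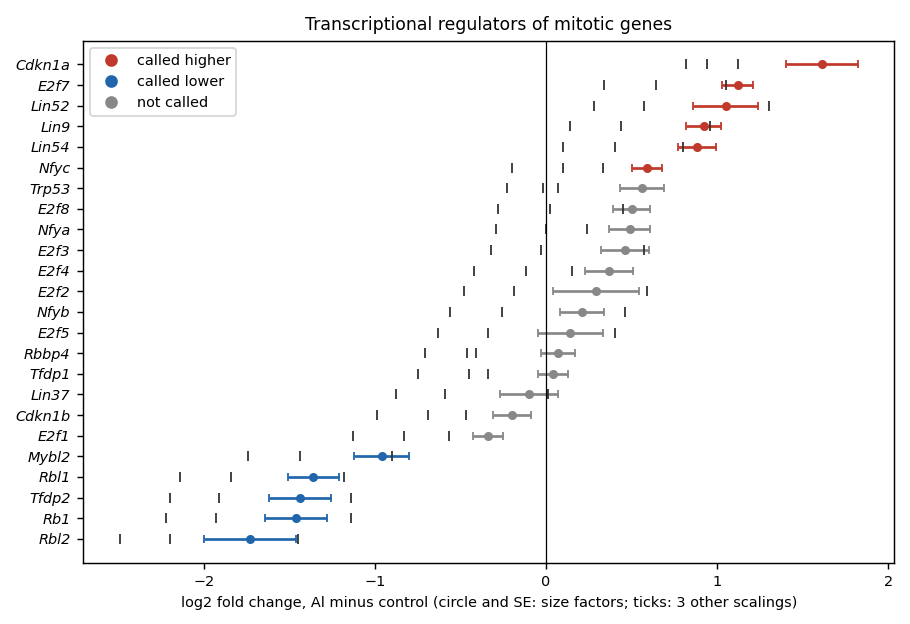
Log2 fold change (Al minus control) of 24 transcriptional regulators of mitotic genes, circles with SE for size factors and ticks for the 3 other scalings; red and blue mark calls higher and lower. Rbl2, Rb1, Tfdp2, Rbl1 and Mybl2 lie below 0 with every tick, and Cdkn1a, E2f7, Lin52, Lin9 and Lin54 above 0 with every tick.

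The members were of ordinary length and somewhat low in GC for this table. The median transcript length behind their FPKM was 3226 bases, against 3301 over the tested genes, and the median GC content 47.3% against 50.5%. Over all tested genes the log2 fold change fell with length, from a median of 0.43 in the shortest of 10 bins to -0.27 in the longest. Taking off the median of the same length bin left Ccnb1 at 0.72, Ccnb2 at -1.23, Cdc25a at 1.01, Cdc25b at -1.08 and Knstrn at -1.27. Ube2c, the shortest member, moved most, from 1.06 to 0.61, and the long Mki67 and Cenpf came to 0.82 and 0.70, past the threshold.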

How the data were processed

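RNA of the 6 input libraries (3 control, 3 Al) was analysed. The authors deposited FPKM per gene symbol. Per the study's methods, reads were trimmed with Trimmomatic, ribosomal reads removed with SortMeRNA and the rest mapped to GRCm38/mm10 with HISAT2; the submitters' processing notes name fastp, HISAT2, HTSeq and GRCm39, and the series text names a BosGru3.0 genome. The sources thus differ on the build, and the table holds mouse gene symbols. The annotation behind the FPKM is not given in the sources used here. Differential calls and m6A peaks of the study were not used here.

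Deposited FPKM were divided by median-of-ratios size factors (1.17 to 1.21 in control, 0.802 to 0.932 in Al; genes above 0 in all libraries, mean FPKM of at least 1). limma 3.58.1 in R 4.3.3 (lmFit, eBayes with trend) was run on log2(value + 0.1) over 12889 genes with mean FPKM of at least 0.1, so fold changes of low genes are understated. Whole reads were recovered from the steps of the FPKM values for 17688 of 17688 genes above 0, within 0.01 reads, and give the depths; limma voom was run on them as an alternative. Intervals and counting errors cover only the stated source. Scripts were tested on simulated data. Partner ratios used exact two-sided permutation tests (scipy 1.17.1). Gene positions and overlaps came from GENCODE vM21, promoter sequences from RefSeq (GRCm38.p6); chromosome 18 was left out of the promoter search. Symbols were matched through 6 older names, such as Gsg2 for Haspin. Alternatives covered scaling, pseudocount, filter, trend, a replicate block, leaving out single libraries, thresholds, voom, GC content and length.

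Every member could be named; other genes were the 2 highest and 2 lowest of a list and any transcriptional regulator. Members, lists, pairs and tests were chosen with earlier results of these data known.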

Additional observations from a re-analysis of the deposited data

How the results depend on the processing

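Calls depended on the scaling between libraries. Members called higher numbered 18 with size factors, 3 as deposited, 0 with TPM, 10 with quantile normalization and 5 at an adjusted P under 0.05 with a log2 fold change over 1; members called lower numbered 5, and 11, 21 and 8 under the 3 other scalings. Of all tested genes 26.2%, 14%, 9.31% and 22% were called higher and 24.4%, 42.0%, 53.1% and 24.1% lower, in that order of scalings. Wider pathway genes called higher came to 12 as deposited and 5 with TPM, and called lower to 32 and 44. The member median was -0.15 as deposited, -0.45 with TPM, 0.15 with quantile normalization and 0.28 within GC bins, against 0.33. Which scaling is nearer to RNA per cell was not tested.

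Signs that turned with TPM were those of Ccna2 (-0.07), Plk1 (-0.04), Birc5 (-0.01), Tpx2 (-0.03), Aurkb (-0.61), Incenp (-0.55), Bub1 (-0.57), Bub1b (-0.47), Mad2l1 (-0.65), Ttk (-0.41), Fzr1 (-0.74), Ndc80 (-0.57), Nuf2 (-0.22), Spc24 (-0.31), Cenpe (-0.75), Cenpf (-0.36), Hmmr (-0.29), Nusap1 (-0.73), Prc1 (-0.59), Anln (-0.62), Ncapd2 (-0.44) and Mki67 (-0.24). As deposited they were Aurkb (-0.32), Incenp (-0.25), Bub1 (-0.27), Bub1b (-0.17), Mad2l1 (-0.35), Ttk (-0.12), Fzr1 (-0.44), Ndc80 (-0.27), Spc24 (-0.02), Cenpe (-0.45), Cenpf (-0.06), Nusap1 (-0.44), Prc1 (-0.29), Anln (-0.32) and Ncapd2 (-0.14). With quantile normalization they were Aurkb (-0.24), Incenp (-0.15), Fzr1 (-0.17), Cenpe (-0.02), Prc1 (-0.10) and Anln (-0.19). Length bins turned Mad2l1 (-0.01), Fzr1 (-0.09), Nusap1 (-0.00) and Smc2 (0.09), and GC bins Dlgap5 (0.04) and Smc2 (0.01).

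With each library left out in turn, 18 to 20 members were called higher and 5 to 6 lower, and none of the 23 calls was lost. Nuf2 was gained without control replicate 3, Al replicate 1 or Al replicate 2, Mki67 without Al replicate 2, and Spc24 (higher) and Ncapg (lower) without Al replicate 3. Genes near 0 changed sign: Mad2l1 ran from -0.00 to 0.26, Fzr1 -0.04 to 0.12, Cenpe -0.05 to 0.13, Nusap1 -0.00 to 0.09, Dlgap5 -0.07 to 0.05, Smc2 -0.11 to 0.03 and Ncaph -0.06 to 0.04. The replicate block, which takes equal replicate numbers as pairs, gave 18 higher and 5 lower. The numbers do not pair the samples, since deviations of same-numbered libraries correlated at -0.0329, -0.0257 and -0.0733. Pseudocounts of 1 and 0.01, both filters, the fit without trend and voom changed no member's call or sign.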
